A study of Homo sapiens with 14 samples.

Results

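The genes described here are 32 members of the amino acid response, the program that the transcription factor ATF4 runs when amino acids run short. They were chosen by gene symbol from a list of ATF4, its partner and downstream transcription factors and their known targets, with the amino acid carriers left out. The list was drawn up with earlier results of these data known, a limit on every count set against a share of all genes. All 32 of 32 symbols were found in both deposited expression tables, each of which lists 63677 genes. A member was tested in a table where its mean over the 6 libraries reached 1 FPKM (fragments or reads scaled by gene length and library depth, so that levels of genes of different length can be set side by side). That kept 27 of 32 members in one table and 28 of 32 in the other, and 26 in both.

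All libraries came from KYSE510, a line of esophageal squamous cell carcinoma cells, grown in RPMI-1640 with fetal bovine serum. Cells were transfected with small interfering RNA (siRNA) by lipofectamine RNAiMAX and their RNA was taken 48 h later. In the EZH2 series, siEZH2-1 and siEZH2-2 were directed at EZH2, the histone H3 lysine methyltransferase of a Polycomb repressive complex, and were set against the negative control siNC. In the LAT1 series, siLAT1-2 and siLAT1-3 were directed at LAT1, and they had a siNC of their own. LAT1 is the protein of SLC7A5, a carrier that brings leucine, methionine and other large neutral amino acids into the cell. Each group held 2 libraries, which makes 12 in all. The results hold for 1 cell line. The labels do not say whether the 2 libraries of a group were grown apart, so a p-value here reflects library-to-library spread that may be technical.

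As background, cells sense a shortage of amino acids through uncharged tRNA, which activates the kinase GCN2. GCN2 phosphorylates the translation factor eIF2α, general protein synthesis slows, and ATF4 mRNA is translated more. ATF4 binds DNA as a dimer with partners such as CEBPG and CEBPB and switches on enzymes that make asparagine, serine, glycine, proline and cysteine, transcription factors that carry the program on, and inhibitors that shut it off. ATF4 protein is set largely by translation, so the level of its mRNA and the levels of its target mRNAs are separate readouts.

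ATF4 and its partners bind a composite element that joins an ATF site to a C/EBP site. The letters TGATGNAA, a core of that element, were searched on both strands from 250 bases before to 50 bases after the annotated starts of genes, in RefSeq promoter windows (GRCh38.p14). They were found in 1270 of 35116 windows of all genes (3.62%). Windows were at hand for 26 of 32 members (42 windows), and 5 of these 42 windows, 1 in each of 5 genes, held the letters. ASNS, ATF3 and CEBPG had 2 windows each, JDP2 had 3 and CHAC1 had 1. Except for CHAC1, the start named below is thus 1 of several, and the gene's other windows held no match. The matches are shown, up to 30 bases each, because these genes do not all behave alike in the results. Letters in capitals mark the match, all are printed 5′ to 3′ on the gene's strand, and a match is a description of the sequence, not a measured binding site.
ASNS, chr7:97872458-97872487, minus strand, match starting 68 bases before the start: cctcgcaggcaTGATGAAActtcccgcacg
CEBPG, chr19:33374060-33374089, plus strand, 42 bases before the start: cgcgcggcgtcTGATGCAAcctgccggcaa
JDP2, chr14:75427995-75428021, plus strand, 16 bases before the start: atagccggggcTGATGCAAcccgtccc
ATF3, chr1:212565205-212565234, plus strand, 191 bases before the start: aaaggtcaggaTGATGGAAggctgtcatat
CHAC1, chr15:40953251-40953280, plus strand, 209 bases before the start, match on the opposite strand: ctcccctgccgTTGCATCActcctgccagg
ASNS is the asparagine synthetase, whose promoter is the textbook example of this element. CEBPG, JDP2 and ATF3 are transcription factors of the same leucine zipper class as ATF4, and CHAC1 is an enzyme that degrades glutathione.

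The targeted genes were measured first. EZH2 stood at 17.1 ± 0.0354 FPKM (SD, n = 2) with siNC, 6.94 ± 0.431 with siEZH2-1 and 6.22 ± 0.255 with siEZH2-2, a log2 change of -1.26 on the mean of both (limma adjusted p = 0.000124). In the LAT1 series, SLC7A5 stood at 410.3 ± 4.39 FPKM with siNC, 83.3 ± 4.16 with siLAT1-2 and 107 ± 0.318 with siLAT1-3. SLC7A5 also fell with each siEZH2 (limma adjusted p = 2.5e-05 and 0.00642), by 2.00 on the log2 scale with siEZH2-1 and by 0.35 with siEZH2-2. Library depth, estimated from the smallest steps in the values, ran from 12800000 to 16780000 reads or fragments per library in the LAT1 series and from 21060000 to 27060000 in the other. All 8 of 8 squamous epithelial markers were tested in both series. On the mean of both siEZH2, 1 of them was called higher (PERP, 0.86) and 1 lower (TP63, -0.30). On the mean of both siLAT1, 1 was called higher (PERP, 0.87) and 4 lower (KRT17, -0.48, KRT14, -0.45, KRT6A, -0.31, and KRT5, -0.17), and the part of these changes in the members' results was not tested. Immune markers stayed at or under 0.0783 FPKM on average, and 0 of 5 reached the level for testing. Of the fibroblast markers 1 of 6 was tested in each series, and of the endothelial markers 0 of 3 in the EZH2 series and 1 of 3 in the other, and these were not called on the mean.

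Among the members, ATF4 and PSAT1, the aminotransferase of serine synthesis, were the most abundant in both tables. In the siNC libraries ATF4 stood at 122 and 128 FPKM in the EZH2 series and at 117 and 112 FPKM in the LAT1 series. PSAT1 stood at 114 and 114 FPKM and at 123 and 122 FPKM, so that the order of ATF4 and PSAT1 was not the same in both tables. At the lower end, DDIT3 (CHOP, a factor of prolonged stress), CHAC1 and JDP2 lay under 4 FPKM in every siNC library. ATF4, PSAT1, PSPH and CBS have near-identical copies or pseudogenes elsewhere in the genome, and how reads were shared among copies, and whether strand was used, are not given in the sources used here, so their levels are uncertain to that extent.

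**Figure D1:**
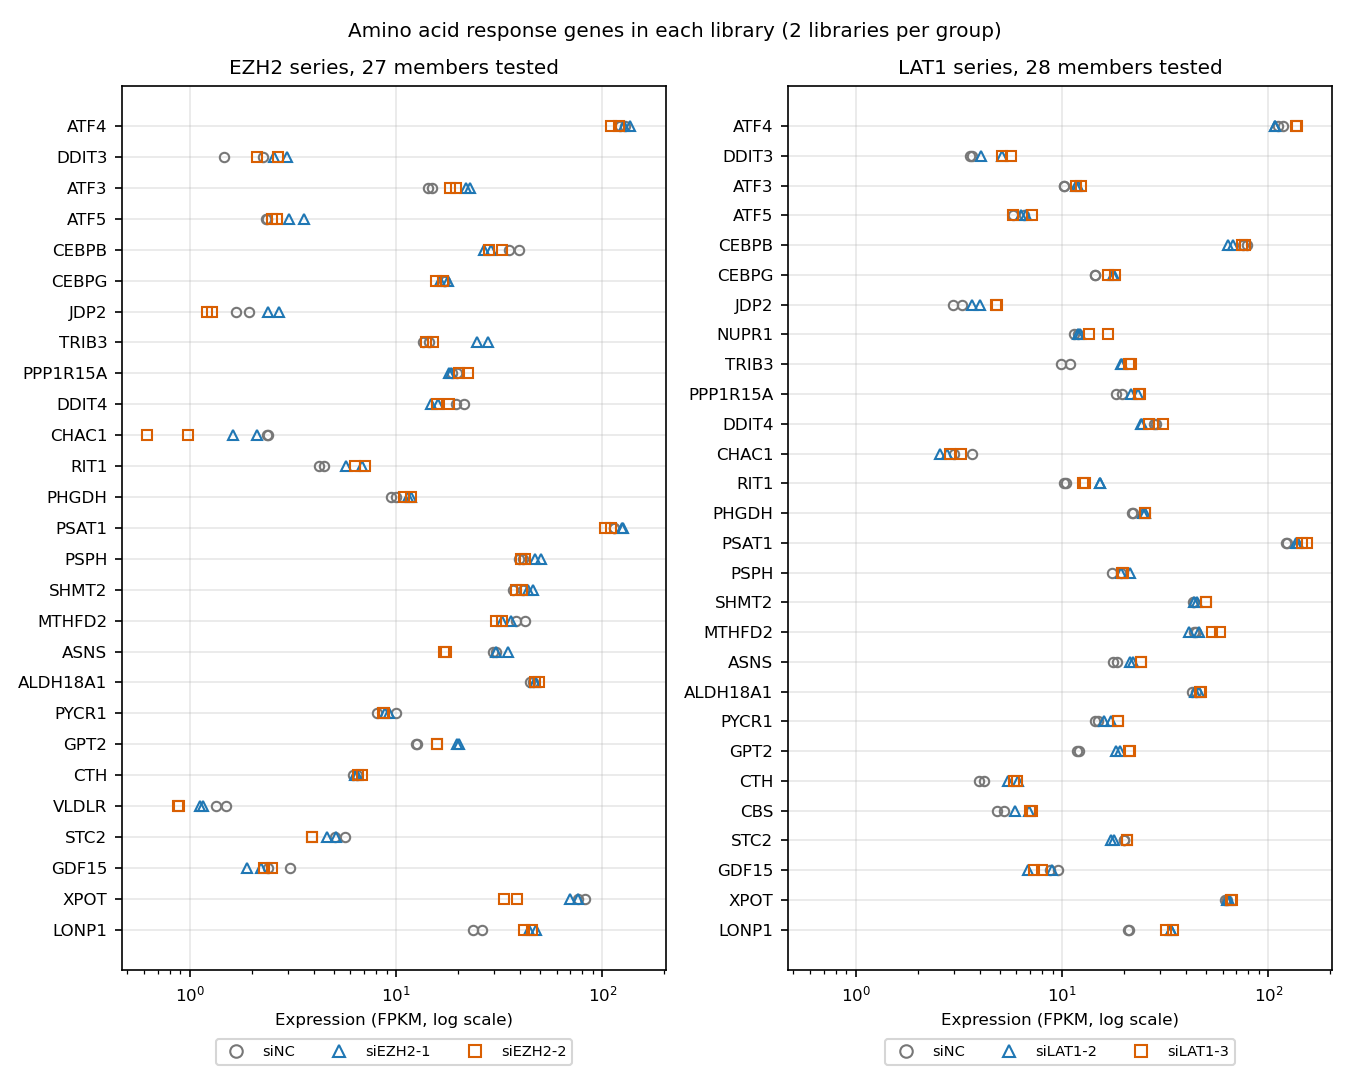
Expression in FPKM (log axis) of the tested members in each of the 6 libraries of the EZH2 series (left, 27 members) and the LAT1 series (right, 28 members), with 2 points for each of siNC, the first siRNA and the second siRNA. Replicate libraries lie close together for most members, TRIB3, GPT2 and LONP1 stand to the right of siNC with both siLAT1, and ASNS and XPOT stand to the left of siNC with siEZH2-2.

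The LAT1 series asks what the loss of an amino acid carrier does to these genes. With LAT1 silenced most members were higher, most of them by small steps. On the mean of both siLAT1, 17 of 28 members were called higher at an adjusted p under 0.05, against 19.3% of all genes tested, and 1 was called lower, against 15.3% (either direction: 18 of 28, against 34.5%). With a filter at 5 FPKM, 25.9% of 7342 genes were called higher on that mean and 21.2% lower. Of the 25 members that passed this filter, none lost a call. The median log2 change of the members was 0.20, against 0.01 for all 11678 genes tested, and 23 of 28 members lay above 0. The 3 members with the largest rises were TRIB3, GPT2 and LONP1. With siLAT1-2, 14 members were called higher and 2 lower (18.6% and 13.9% of all genes). With siLAT1-3, 19 were called higher and 0 lower (limma; 0 lower also at an unadjusted p under 0.05), against 17.9% and 13.6% of all genes and 31.4% in either direction. In all, 14 of 28 were called higher with siLAT1-2 and with siLAT1-3 alike, against 11.2% of all genes. No member was called lower with both (limma; 0 also at an unadjusted p under 0.05), and 5.31% of all genes were. None was called in opposite directions by the siRNAs (ATF4 was at an unadjusted p under 0.05), against 1.46% of all genes. In 18 of 28 members all 4 siLAT1 libraries lay above both siNC libraries, against 24.4% of all genes, and in 0 of 28 did all 4 lie below, against 16.9%. These are bulk measurements, in which a change in every cell and a change in a share of the cells cannot be told apart. Both siLAT1 share the same siNC libraries, so calls with each are not independent. When either siNC library was left out, fewer members were called higher with each siLAT1, and fewer on the mean. Over all genes fewer were called higher on the mean in these fits too. The share of all genes called higher with each siLAT1 was not computed for them. ASNS, CEBPG, CTH, GPT2, LONP1, PHGDH, RIT1 and TRIB3, 8 of the 14, kept both calls with each library left out in turn. The siLAT1-2 calls of ATF3, PSAT1, PYCR1, PPP1R15A and CBS were lost without siNC replicate 1 and without up to 3 other libraries, and that of JDP2 without any 1 of the 6.

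Among the transcription factors, 5 of 8 rose on the mean of both siLAT1 and 1 fell, against 19.3% and 15.3% of all genes tested. ATF4 itself (ENSG00000128272) split by siRNA. It stood at 117 and 112 FPKM with siNC, 107 and 107 FPKM with siLAT1-2 and 137 and 138 FPKM with siLAT1-3. The siLAT1-3 libraries lay above siNC and the siLAT1-2 libraries lay below it. The log2 change was -0.09 with siLAT1-2 (limma adjusted p = 0.0546) and 0.26 with siLAT1-3 (adjusted p = 0.00111), and siLAT1-3 differed from siLAT1-2 by 0.35 ± 0.03 (SE, limma adjusted p = 0.000355). The mean of both was called at 0.08 (limma adjusted p = 0.0466), and that call was lost when any of the 6 libraries was left out, with adjusted p-values of up to 0.301 without siNC replicate 2.

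CEBPG, the dimer partner of ATF4 whose promoter match is printed above, stood at 14.4 and 14.5 FPKM with siNC, 17.9 and 17.8 FPKM with siLAT1-2 and 18.1 and 16.8 FPKM with siLAT1-3. All 4 siLAT1 libraries lay above siNC and the 2 siRNAs overlapped, with a log2 change of 0.27 ± 0.038 (SE, limma adjusted p = 0.00206). CEBPB, another partner, went the other way at 78.9 and 75.1 FPKM with siNC, 67.1 and 63.8 FPKM with siLAT1-2 and 76.6 and 74.6 FPKM with siLAT1-3. It fell with siLAT1-2 by 0.23 on the log2 scale (limma adjusted p = 0.00448) and was at -0.03 with siLAT1-3 (adjusted p = 0.659). Its call on the mean of both, at -0.13, was lost without siNC replicate 1 (limma adjusted p = 0.178), without siLAT1-2 replicate 2 (0.052) and without siLAT1-3 replicate 2 (0.0595). ATF3, a stress-induced repressor and activator, stood at 10.3 and 10.2 FPKM with siNC, 11.6 and 11.9 FPKM with siLAT1-2 and 12.3 and 11.7 FPKM with siLAT1-3, a rise of 0.20 ± 0.037 (SE, limma adjusted p = 0.00704) that was lost without siNC replicate 2 (adjusted p = 0.0553). JDP2, a repressor of the same class, stood at 3.29 and 2.96 FPKM with siNC, 3.67 and 4.02 FPKM with siLAT1-2 and 4.81 and 4.84 FPKM with siLAT1-3. Its levels stepped up from siNC to siLAT1-2 to siLAT1-3 with no overlap, and the log2 change was 0.23 with siLAT1-2 (limma adjusted p = 0.0436) and 0.50 with siLAT1-3 (adjusted p = 0.00248). DDIT3 stood at 3.67 and 3.59 FPKM with siNC, 4.06 and 5.14 FPKM with siLAT1-2 and 5.65 and 5.14 FPKM with siLAT1-3, a rise of 0.37 ± 0.085 (SE, limma adjusted p = 0.0162) on the mean that was lost without either siNC library (adjusted p = 0.0852 and 0.0994). NUPR1, a small chromatin-associated stress protein, rose with siLAT1-3 (0.34, limma adjusted p = 0.0253) and stood at 0.05 with siLAT1-2 (adjusted p = 0.682). The former call was lost without either siNC library (adjusted p of up to 0.122). ATF5, a related factor, was at 0.06 on the mean (adjusted p = 0.6).

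Of the genes that feed back on the pathway or answer stress, 3 of 5 rose on the mean of both siLAT1, against 19.3% of all genes. TRIB3 (ENSG00000101255), a pseudokinase that restrains ATF4 and CHOP, had the largest change of any member. It stood at 9.94 and 10.95 FPKM with siNC, 19.3 and 19.6 FPKM with siLAT1-2 and 21.0 and 21.6 FPKM with siLAT1-3. The siLAT1 libraries were close to each other and far above siNC, and the log2 change was 0.90 ± 0.043 (SE, limma adjusted p = 2.9e-05), with 0.84 for siLAT1-2 and 0.97 for siLAT1-3. PPP1R15A (GADD34), which directs the phosphatase that reverses eIF2α phosphorylation, stood at 18.2 and 19.5 FPKM with siNC, 21.6 and 23.3 FPKM with siLAT1-2 and 24.0 and 23.7 FPKM with siLAT1-3. Every siLAT1 library exceeded siNC, and the change was 0.28 ± 0.042 (SE, limma adjusted p = 0.00282). RIT1, a small GTPase of the Ras family, stood at 10.5 and 10.3 FPKM with siNC, 15.3 and 15.3 FPKM with siLAT1-2 and 12.9 and 12.7 FPKM with siLAT1-3, a rise of 0.40 ± 0.032 (SE, limma adjusted p = 0.000208). It was the only one of the 10 members that differed between the siRNAs to be higher with siLAT1-2, by a log2 difference of -0.24 for siLAT1-3 minus siLAT1-2 (limma adjusted p = 0.00443). CHAC1 and DDIT4 did not pass the test. CHAC1 stood at 2.99 and 3.66 FPKM with siNC, 2.57 and 2.76 FPKM with siLAT1-2 and 3.24 and 2.88 FPKM with siLAT1-3, at a log2 change of -0.16 with an interval of -0.36 to 0.04. DDIT4 (REDD1), an inhibitor of the growth kinase mTORC1, was at -0.10, with an interval of -0.24 to 0.04.

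In serine synthesis and mitochondrial one-carbon metabolism, 3 of 5 enzymes rose on that mean, against 19.3% of all genes. PHGDH, which makes the first committed step of serine synthesis, stood at 21.8 and 22.2 FPKM with siNC, 25.3 and 24.8 FPKM with siLAT1-2 and 25.3 and 25.4 FPKM with siLAT1-3. The 4 siLAT1 libraries lay within a narrow band above siNC, a rise of 0.19 ± 0.028 (SE, limma adjusted p = 0.00251). PSAT1, the next enzyme, stood at 123 and 122 FPKM with siNC, 139.5 and 137 FPKM with siLAT1-2 and 154 and 145 FPKM with siLAT1-3, with both siRNAs above siNC and a change of 0.23 ± 0.03 (SE, limma adjusted p = 0.00167). PSPH, the last enzyme of the route, was at 0.11 (limma adjusted p = 0.137). SHMT2, which turns serine into glycine in mitochondria, stood at 43.2 and 43.7 FPKM with siNC, 43.8 and 45.2 FPKM with siLAT1-2 and 49.6 and 49.95 FPKM with siLAT1-3. It rose with siLAT1-3 (0.19, limma adjusted p = 0.00356) and stood at 0.03 with siLAT1-2, and its call on the mean was lost without either siNC library (adjusted p = 0.103 and 0.0707). MTHFD2, the following enzyme of the mitochondrial folate route, split in the same way at 44.4 and 43.8 FPKM with siNC, 41.2 and 46.1 FPKM with siLAT1-2 and 58.3 and 53.2 FPKM with siLAT1-3. Its log2 change was -0.02 with siLAT1-2 and 0.33 with siLAT1-3 (limma adjusted p = 0.00818), the latter lost without siNC replicate 2 (0.053).

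Of the other amino acid enzymes, 5 of 6 rose, against 19.3% of all genes, and each of the 5 was called with both siLAT1, against 11.2%. GPT2 (ENSG00000166123), the mitochondrial alanine aminotransferase, stood at 11.8 and 12.0 FPKM with siNC, 18.3 and 19.1 FPKM with siLAT1-2 and 21.4 and 21.2 FPKM with siLAT1-3. Its 3 groups were separate, siLAT1-3 highest, and the change was 0.70 ± 0.033 (SE, limma adjusted p = 2.79e-05). ASNS (ENSG00000070669), asparagine synthetase, stood at 17.7 and 18.5 FPKM with siNC, 21.5 and 22.0 FPKM with siLAT1-2 and 24.3 and 24.1 FPKM with siLAT1-3, again in the order siNC, siLAT1-2, siLAT1-3 without overlap, with a change of 0.33 ± 0.032 (SE, limma adjusted p = 0.000474). CTH and CBS, the enzymes that make cysteine from homocysteine, were the 2 of low abundance. CTH stood at 3.95 and 4.18 FPKM with siNC, 5.45 and 6.09 FPKM with siLAT1-2 and 6.06 and 5.83 FPKM with siLAT1-3, a rise of 0.44 ± 0.057 (SE, limma adjusted p = 0.00155) with no order between the siRNAs. CBS stood at 4.84 and 5.24 FPKM with siNC, 5.95 and 6.92 FPKM with siLAT1-2 and 7 and 7.12 FPKM with siLAT1-3, a rise of 0.36 ± 0.064 (SE, limma adjusted p = 0.00593) that was lost without siNC replicate 1 (adjusted p = 0.0588). PYCR1, a proline enzyme, stood at 14.9 and 14.4 FPKM with siNC, 17.2 and 16.0 FPKM with siLAT1-2 and 18.8 and 18.8 FPKM with siLAT1-3, a rise of 0.25 ± 0.039 (SE, limma adjusted p = 0.00307). ALDH18A1, which opens proline synthesis, was at 0.07 with an interval of -0.001 to 0.15 and did not pass.

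LONP1 (ENSG00000196365), a protease of the mitochondrial matrix, stood at 21.1 and 20.9 FPKM with siNC, 33.9 and 33.7 FPKM with siLAT1-2 and 31.9 and 34.4 FPKM with siLAT1-3. All 4 siLAT1 libraries lay far above siNC and the 2 siRNAs overlapped, with a change of 0.65 ± 0.035 (SE, limma adjusted p = 4.56e-05). XPOT, which exports tRNA from the nucleus, was at 0.05 with an interval of -0.01 to 0.12 and did not pass. Neither tested gene for a secreted protein was called on the mean. GDF15, a stress cytokine, was at -0.22 with an interval of -0.45 to 0.01, and did not pass. STC2, a secreted glycoprotein, stood at 20.0 and 20.1 FPKM with siNC, 17.2 and 17.8 FPKM with siLAT1-2 and 20.7 and 20.8 FPKM with siLAT1-3. The siLAT1-2 libraries lay below the other 4. STC2 fell with siLAT1-2 (-0.19, limma adjusted p = 0.00686) and was at 0.05 with siLAT1-3.

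**Figure D2:**
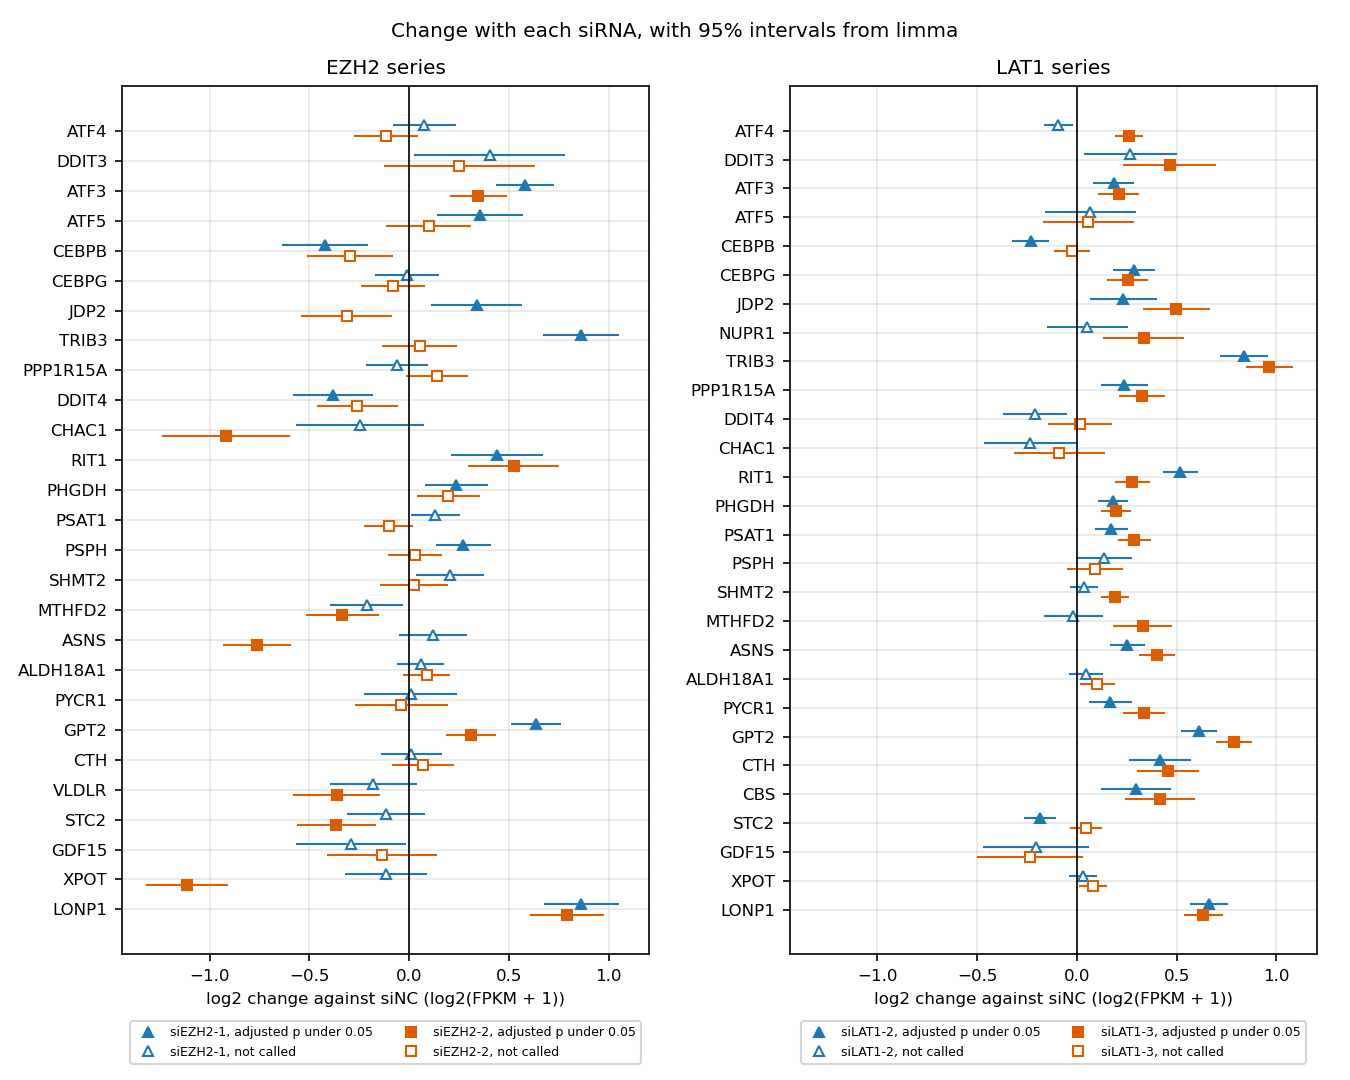
Log2 change of each tested member against siNC with the first siRNA (triangles) and the second (squares) of the EZH2 series (left) and the LAT1 series (right), with 95% intervals from limma; filled symbols mark an adjusted p under 0.05. In the LAT1 series the filled symbols lie to the right of 0 apart from CEBPB and STC2 with siLAT1-2, and in the EZH2 series they lie on both sides.

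The 2 siLAT1 were then compared directly. siLAT1-3 gave the higher level in 9 of 28 members and siLAT1-2 in 1, against 12.4% and 13.1% of all genes tested, and 22 of 28 members had a higher estimate with siLAT1-3 (median log2 difference 0.12, against 0.01 for all genes). Among the 9 called higher with siLAT1-3, the differences were largest in ATF4 (0.35) and MTHFD2 (0.35), followed by JDP2 (0.27), STC2 (0.23) and CEBPB (0.21). TRIB3 and LONP1 did not pass the test of a difference, at 0.13 with an interval of 0.01 to 0.25 (limma adjusted p = 0.107) and at -0.03 with an interval of -0.12 to 0.07. SLC7A5 was at 20.3% of siNC with siLAT1-2 and at 26.0% with siLAT1-3, so that the siRNA with the lower SLC7A5 level was not the one with the higher levels of these members; whether the remaining level of SLC7A5 bears on the difference was not tested. The differences of ATF4, MTHFD2, STC2 and RIT1 were called with each library left out in turn. Fewer members differed whichever library was left out, and fewer of all genes tested did as well.

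The EZH2 series gave no single direction. On the mean of both siEZH2, 6 of 27 members were called higher, against 17.0% of all genes tested, and 8 were called lower, against 13.0%. The median log2 change of the members was 0.02, against 0.03 for all 11585 genes tested. The 2 siRNAs differed from each other: with siEZH2-1, 9 members were called higher and 2 lower (15.9% and 11.4% of all genes), and with siEZH2-2, 4 were called higher and 6 lower (13.9% and 10.9%). Called higher with each siEZH2 were 4 of 27, against 8.93% of all genes, namely LONP1, RIT1, GPT2 and ATF3. No member was called lower with each (limma; 3 at an unadjusted p under 0.05), against 4.05% of all genes. All 4 siEZH2 libraries lay above both siNC libraries in 7 members and below in 5, against 25.1% and 15.3% of all genes. With siNC replicate 1 left out the 8 lower calls became 2, and with siNC replicate 2 left out they became 3, while the share of all genes called lower became 4.82% and 7.41%. Leaving out siEZH2-1 replicate 2 or siEZH2-2 replicate 1 gave 5, with 8.12% and 9.40% of all genes. With siNC replicate 1 left out, LONP1 alone of the 4 was still called higher with each siEZH2.

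LONP1 had the largest rise, at 23.6 and 26.2 FPKM with siNC, 44.3 and 47.8 FPKM with siEZH2-1 and 45.9 and 41.7 FPKM with siEZH2-2. Every siEZH2 library lay far above siNC and the 2 siRNAs overlapped, with a log2 change of 0.83 ± 0.067 (SE, limma adjusted p = 0.000555). RIT1 stood at 4.47 and 4.26 FPKM with siNC, 6.86 and 5.74 FPKM with siEZH2-1 and 6.36 and 7.08 FPKM with siEZH2-2, likewise with overlapping siRNAs above siNC, a change of 0.48 ± 0.083 (SE, limma adjusted p = 0.00744). GPT2 stood at 12.4 and 12.6 FPKM with siNC, 19.8 and 20.3 FPKM with siEZH2-1 and 15.7 and 15.8 FPKM with siEZH2-2. Both siRNAs lay above siNC, siEZH2-1 more so, with log2 changes of 0.64 with siEZH2-1 (limma adjusted p = 0.000628) and 0.31 with siEZH2-2 (adjusted p = 0.00783). ATF3 stood at 14.3 and 14.9 FPKM with siNC, 21.9 and 22.8 FPKM with siEZH2-1 and 19.5 and 18.3 FPKM with siEZH2-2, in the same order and with no overlap, with log2 changes of 0.58 with siEZH2-1 (limma adjusted p = 0.0014) and 0.35 with siEZH2-2 (adjusted p = 0.00855). PHGDH was called on the mean at 0.22 (limma adjusted p = 0.0306), and the call was lost without 5 of the 6 libraries, with adjusted p-values of up to 0.201 without siNC replicate 1.

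TRIB3 rose with siEZH2-1 alone. It stood at 13.6 and 14.5 FPKM with siNC, 24.7 and 28.0 FPKM with siEZH2-1 and 15.2 and 14.0 FPKM with siEZH2-2. The siEZH2-1 libraries lay far above the other 4, and the siEZH2-2 libraries overlapped siNC, with log2 changes of 0.86 with siEZH2-1 (limma adjusted p = 0.000912) and 0.05 with siEZH2-2 (adjusted p = 0.662) and a difference between the siRNAs of -0.81 ± 0.079 (SE, limma adjusted p = 0.00156). ASNS fell with siEZH2-2 and stood at 30.6 and 29.5 FPKM with siNC, 30.7 and 34.8 FPKM with siEZH2-1 and 17.6 and 17.1 FPKM with siEZH2-2. The siEZH2-2 libraries lay far below the other 4, with log2 changes of 0.12 with siEZH2-1 (limma adjusted p = 0.257) and -0.76 with siEZH2-2 (adjusted p = 0.00093) and a difference of -0.88 ± 0.071 (SE, limma adjusted p = 0.000778). XPOT had the largest fall of any member, with siEZH2-2, at 82.0 and 76.1 FPKM with siNC, 76.4 and 69.5 FPKM with siEZH2-1 and 33.5 and 38.7 FPKM with siEZH2-2. Its siEZH2-1 libraries overlapped siNC, and the log2 changes were -0.12 with siEZH2-1 (limma adjusted p = 0.352) and -1.11 with siEZH2-2 (adjusted p = 0.000474), a difference of -0.997 ± 0.086 (SE, limma adjusted p = 0.00093). CHAC1 fell with siEZH2-2 and stood at 2.40 and 2.37 FPKM with siNC, 1.62 and 2.12 FPKM with siEZH2-1 and 0.98 and 0.62 FPKM with siEZH2-2. Its log2 changes were -0.24 with siEZH2-1 (limma adjusted p = 0.219) and -0.92 with siEZH2-2 (adjusted p = 0.00456). JDP2 lay above siNC with siEZH2-1 and below it with siEZH2-2, at 1.93 and 1.68 FPKM with siNC, 2.39 and 2.70 FPKM with siEZH2-1 and 1.29 and 1.22 FPKM with siEZH2-2, with log2 changes of 0.34 with siEZH2-1 (limma adjusted p = 0.0412) and -0.31 with siEZH2-2 (adjusted p = 0.0543), the first of which was lost without any 1 of the 6 libraries. The calls of the difference between siRNAs in TRIB3, ASNS and XPOT held with each library left out in turn, and those of CHAC1 and JDP2 were lost without siEZH2-1 replicate 2. That of CHAC1 was lost without siEZH2-2 replicate 2 too, and that of GPT2 without either siEZH2-1 library and without siEZH2-2 replicate 2.

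**Figure D3:**
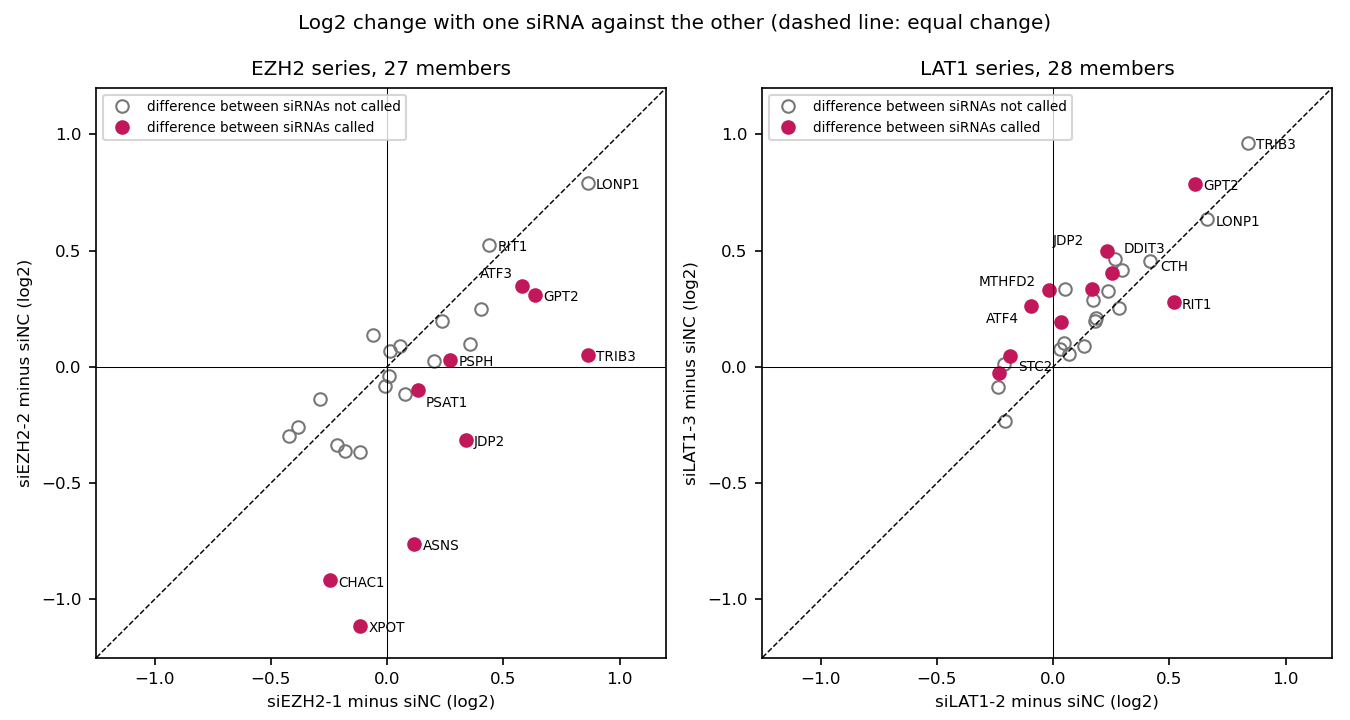
Log2 change against siNC with the second siRNA (vertical axis) plotted against that with the first (horizontal axis) for each tested member of the EZH2 series (left, 27 members) and the LAT1 series (right, 28 members); filled points mark members whose difference between the siRNAs had an adjusted p under 0.05, and the dashed line marks equal change. In the EZH2 series all 9 filled points lie below the line, with XPOT, ASNS and CHAC1 at the bottom, and in the LAT1 series 9 of 10 lie above it. Both axes share the same siNC libraries.

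The difference between the siEZH2 ran one way among the members called: 9 of 27 were lower with siEZH2-2 than with siEZH2-1, against 8.86% of all genes, and 0 were higher (limma; 1 at an unadjusted p under 0.05), against 7.40%. The median difference over the members was -0.18, against 0.00 for all genes, and 20 of 27 lay below 0. EZH2 fell by 1.19 with siEZH2-1 and by 1.32 with siEZH2-2 on the log2 scale, while SLC7A5 was at 24.9% of siNC with siEZH2-1 and 78.6% with siEZH2-2. With 2 siRNAs, the part that the SLC7A5 level or the sequence of an siRNA has in this difference cannot be told apart. The differences in ATF3, PSAT1 and PSPH were lost without any 1 of the 6 libraries. Fewer members differed when any 1 of the 6 libraries was left out, and fewer of all genes tested did as well.

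The other transcription factors were mixed. ATF4 stood at 122 and 128 FPKM with siNC, 128 and 137 FPKM with siEZH2-1 and 121 and 110.3 FPKM with siEZH2-2. The siEZH2-1 libraries overlapped siNC and both siEZH2-2 libraries lay below them, and its log2 change of -0.02 on the mean of both had an interval of -0.16 to 0.12 and did not pass. CEBPB fell on the mean of both by 0.36 on the log2 scale (limma adjusted p = 0.0171), a call lost without siNC replicate 2 (adjusted p = 0.0949). It stood at 35.4 and 39.6 FPKM with siNC, 26.7 and 28.8 FPKM with siEZH2-1 and 32.6 and 28.1 FPKM with siEZH2-2. ATF5 rose with siEZH2-1 (0.36, limma adjusted p = 0.0299) and was at 0.10 with siEZH2-2. CEBPG was at -0.05 with an interval of -0.18 to 0.09, and did not pass. DDIT3 stood at 1.47 and 2.28 FPKM with siNC, 2.57 and 2.98 FPKM with siEZH2-1 and 2.69 and 2.11 FPKM with siEZH2-2. The siEZH2-2 libraries overlapped siNC, and the log2 change of 0.33, with an interval of 0.00 to 0.66, passed with siNC replicate 2 left out (adjusted p = 0.046) and not otherwise with a library left out.

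Among the remaining enzymes and stress genes, PSPH rose with siEZH2-1 (0.27, limma adjusted p = 0.017) and PSAT1, at 0.13 and -0.10, passed only the test of the difference between the siRNAs (-0.23, adjusted p = 0.0278). MTHFD2 fell with siEZH2-2 (-0.33, limma adjusted p = 0.0211) and on the mean of both (-0.27). DDIT4 fell with siEZH2-1 (-0.38, limma adjusted p = 0.0197) and on the mean (-0.32). VLDLR, a lipoprotein receptor, and STC2 fell on the mean by 0.27 and 0.24 on the log2 scale (limma adjusted p = 0.043 and 0.0452), and both calls were lost without any 1 of the 6 libraries. SHMT2, ALDH18A1, PYCR1, CTH, PPP1R15A and GDF15 passed in none of the 4 comparisons, at mean log2 changes between -0.21 (GDF15) and 0.11 (SHMT2). The MTHFD2 and DDIT4 calls on the mean were lost in 3 and 2 of the 6 fits that left out 1 library, among them those without siNC replicate 1 (adjusted p = 0.168 and 0.0572). Without that library the siEZH2-1 calls of ATF5, PSPH and DDIT4 and the siEZH2-2 call of MTHFD2 were lost too.

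**Figure D4:**
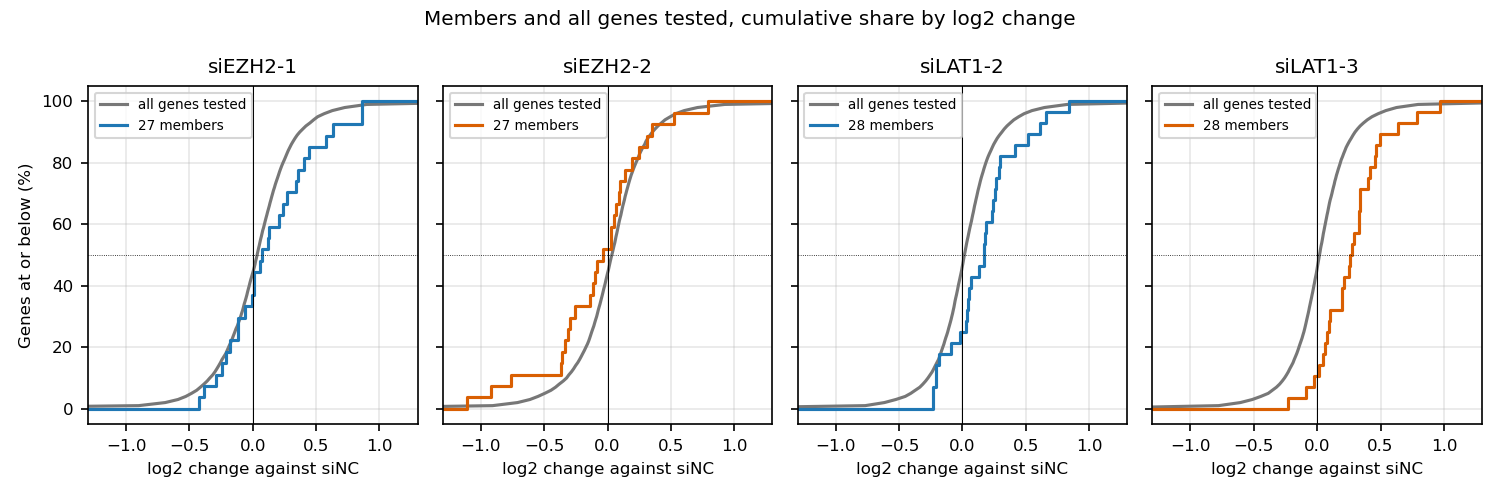
Cumulative share of genes (percent, vertical axis) by log2 change against siNC (horizontal axis) for each siRNA, with the members as a stepped coloured line, all genes tested in grey and the dotted line at the median. The members lie to the right of all genes over most of the range with siLAT1-2 and siLAT1-3, where their medians were 0.17 and 0.27 against 0.02 and 0.02, and cross them with siEZH2-1 (0.08 against 0.03) and siEZH2-2 (-0.04 against 0.03).

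Set side by side across the 26 members tested in both series, 4 were called higher with all 4 siRNAs, against 5.39% of all genes tested in both: LONP1, GPT2, ATF3 and RIT1. None was called lower with all 4 (limma; 0 also at an unadjusted p under 0.05), against 1.34% of all genes. The 4 are 4 of the 4 called higher with each siEZH2 and 4 of the 14 called higher with each siLAT1. On the means, 6 of 26 were called higher in both series, against 9.91% of all genes: these 4 with TRIB3 and PHGDH. In the EZH2 series TRIB3 rose with siEZH2-1 alone, at 0.05 with siEZH2-2. The PHGDH call of that series was lost with most single libraries left out. CEBPB was the 1 member called lower on both means, against 5.83% of all genes, by 0.36 and 0.13 on the log2 scale. It was called with siEZH2-1 and siLAT1-2, and not with siEZH2-2 (limma adjusted p = 0.0561) or siLAT1-3 (adjusted p = 0.659). Each of its calls on the mean was lost in at least 1 fit that left out a library. ASNS was the 1 member called lower in the EZH2 series and higher in the LAT1 series, against 0.852% of all genes, at -0.32 in the EZH2 series, where siEZH2-1 alone gave 0.12, and at 0.33 in the LAT1 series. The former call was lost without siNC replicate 1 (limma adjusted p = 0.0815). Of the 5 genes with a printed promoter match, ASNS, CEBPG, JDP2 and ATF3 were called higher with each siLAT1 and CHAC1 with neither. The same call was made for 14 of 28 members and 11.2% of all genes. ASNS and CEBPG kept both calls with each library left out in turn, and JDP2 and ATF3 did not. ATF3 alone of the 5 was called higher with each siEZH2, against 8.93% of all genes. Whether a match goes with a change was not tested.

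The wider pathway was covered by lists of genes that are no members. Of 26 tested genes upstream of ATF4 (the eIF2α kinases, eIF2 and eIF2B subunits and regulators of ATF4 protein), 5 were called higher and 7 lower on the mean of both siLAT1, against 19.3% and 15.3% of all genes tested. The 4 kinases EIF2AK1 to EIF2AK4 passed on that mean in neither series. With single siRNAs, EIF2AK1 rose with siLAT1-2 (0.14, limma adjusted p = 0.00894) and EIF2AK3 (PERK) fell with siLAT1-3 (-0.26, adjusted p = 0.0446), while EIF2AK4, the gene of GCN2, passed with none of the 4 siRNAs. Called with each siLAT1 were NCK1 (0.35), DNAJC3 (0.28) and EIF2B3 (0.25) among those higher, and PPP1R15B (-0.40), the constitutive eIF2α phosphatase adaptor, and FBXW11 (-0.31), an F-box protein of the ubiquitin ligase type that degrades ATF4, among those lower. In the EZH2 series 2 of 25 were called higher and 2 lower, against 17.0% and 13.0% of all genes, and FBXW11 (-0.47) was the one called with each siEZH2. Of other ATF4 or CHOP targets, 4 of 19 were called higher and 1 lower in the LAT1 series (19.3% and 15.3% of all genes), with PCK2 (0.63), SESN2 (0.37) and TMEM184B (0.31) called with each siLAT1, and 4 of 17 higher and 6 lower in the EZH2 series (17.0% and 13.0% of all genes), where PCK2 (0.48) and TMEM184B (0.40) rose and GADD45A (-0.63) and HERPUD1 (-0.54) fell with each siEZH2. PCK2 is the mitochondrial phosphoenolpyruvate carboxykinase and SESN2 is a leucine sensor that restrains mTORC1. The last list held leucine zipper factors that can pair with the members or belong to their class, and CEBPZ, placed there by its name. Of its 21 tested genes, 6 were called higher and 3 lower with LAT1 silenced, against 19.3% and 15.3% of all genes. With EZH2 silenced 3 were called higher and 6 lower, CEBPZ (-0.60) among the lower, against 17.0% and 13.0%. With LAT1 silenced, ATF1 (0.70), NFE2L1 (0.57), CEBPD (0.45), CREB3 (0.37) and JUN (0.30) rose with each siRNA. In the EZH2 series NFE2L1 (0.56) and CREB3 (0.43) rose, and FOSL1 (-0.61) and NFE2L2 (-0.40) fell, with each siRNA.

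The members under 1 FPKM were not tested. INHBE, ULBP1 and ADM2, which encode an inhibin subunit, a ligand of the immune receptor NKG2D and a peptide hormone, averaged under 0.1 FPKM in the EZH2 series. In the LAT1 series INHBE was listed at 0.52 and 0.47 FPKM with siNC, 0.68 and 0.76 FPKM with siLAT1-2 and 1 and 0.83 FPKM with siLAT1-3, with the 4 siLAT1 libraries above siNC. ADM2 was listed at 0.83 and 0.54 FPKM with siNC, 1.19 and 0.91 FPKM with siLAT1-2 and 1.14 and 1.01 FPKM with siLAT1-3, again with all 4 above siNC. ULBP1 was listed at 1.13 and 0.78 FPKM with siNC, 0.63 and 0.63 FPKM with siLAT1-2 and 0.79 and 0.79 FPKM with siLAT1-3, and VLDLR at 0.97 and 0.93 FPKM with siNC, 0.76 and 0.69 FPKM with siLAT1-2 and 0.74 and 0.57 FPKM with siLAT1-3. In VLDLR all 4 siLAT1 libraries lay below siNC, and in ULBP1 the groups overlapped. How often all 4 lie above or below siNC among all genes under 1 FPKM was not computed. The members nearest the threshold from above were VLDLR at a mean of 1.15 FPKM and CHAC1 at 1.69 FPKM in the EZH2 series and CHAC1 at 3.02 FPKM in the LAT1 series. In the EZH2 series CBS was listed at 0 in 5 of 6 libraries and NUPR1 averaged 0.24 FPKM, although they averaged 6.18 and 13.0 FPKM in the LAT1 series. The EZH2 table lists 108 genes under 0.1 FPKM that average 5 FPKM or more in the LAT1 table, and 0 genes the other way. One of them is the ubiquitin gene UBB, which every cell uses, so these listings are no measure of absence.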

How the data were processed

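RNA sequencing of KYSE510 cells gave 12 libraries in 2 series, and the authors deposited 1 table of FPKM values per series, to 2 decimals. The unit was read from the values, since the labels do not state it. The submitters' processing notes name STAR, Bowtie, Bowtie2, SEACR, Picard and Trim Galore, and both hg38 and hg19, without roles; the counting program, gene lengths and strand setting are not given in the sources used here. In the LAT1 series both siNC titles carry the same number, and the descriptions, which number them 1 and 2, were followed. The 2 CUT&Tag samples were not analysed here.

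Each table was fitted alone, since nothing says that both were normalised together. Genes averaging 1 FPKM or more over its 6 libraries entered limma 3.58.1 (trend option, R 4.3.3) as log2(FPKM + 1), with 3 groups. Changes on this scale understate those of low genes. Each siRNA, and the average of both, was compared with siNC, and the siRNAs with each other. Calls are two-sided, at a Benjamini-Hochberg adjusted p under 0.05 over all genes tested, with 95% intervals. With 4 libraries against 2, exact permutation cannot reach a p under 0.0667, so calls rest on the spread that limma pools across genes. Depth was estimated from short RNA genes, of whose low values 79.2% to 82.8% came out as whole reads within 0.12 reads. The members, roles and other lists were chosen with earlier results of these data known. All 32 members are named. Values in every library are given for those called on the mean and with each siRNA, for ATF4, DDIT3, ASNS, TRIB3 and CHAC1, and for the 5 largest differences between siRNAs. Up to 5 genes per list and series with the largest changes, among those called on the mean and with each siRNA, are named. The values of EIF2AK1, EIF2AK3, CEBPZ and some further members were added after values were seen. Each series was refitted under 12 other settings: pooling both siRNAs, a replicate block, quantile normalization, a 0.1 pseudocount, a 5 FPKM filter or none, and leaving out each of 6 libraries. The procedure was also run on simulated data, with noise drawn independently for each gene and library. Such data hold no spread shared between libraries, so that run cannot speak to it. Python 3.11.15 drew the plots.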

Additional observations from a re-analysis of the deposited data

Results flagged for a closer look

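Differences between the 2 siRNAs of one target that passed limma's test (adjusted p under 0.05) were found in 19 cases. For siEZH2-2 minus siEZH2-1 the log2 differences were -0.997 for XPOT, -0.88 for ASNS, -0.81 for TRIB3, -0.67 for CHAC1 and -0.65 for JDP2. The smaller ones were -0.33 for GPT2, -0.24 for PSPH, -0.23 for PSAT1 and -0.23 for ATF3. For siLAT1-3 minus siLAT1-2 they were 0.35 for ATF4, 0.35 for MTHFD2, 0.27 for JDP2, 0.23 for STC2 and 0.21 for CEBPB. The others were 0.18 for GPT2, 0.17 for PYCR1, 0.16 for SHMT2, 0.15 for ASNS and -0.24 for RIT1. Groups of 2 libraries are too small to look for a library that stands apart within its group.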

How the results depend on the processing

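Under the 12 other settings, no called change of a member reversed, and 10 of the 17 higher calls in the LAT1 series held in all of them, as did 3 of 6 higher and 0 of 8 lower calls in the EZH2 series (ATF3, LONP1 and RIT1 held). The share of all called genes that held in all 12 was not computed. Over all genes in the LAT1 series, 5.30% were called higher without a filter and 8.47% pooled, against 19.3% in the fit reported above. In the EZH2 series the members called lower numbered 1 without a filter, 5 of 20 with a filter at 5 FPKM and 0 with both siRNAs pooled. Over all genes 2.48%, 17.1% and 2.81% were called lower in these fits, against 13.0% in the fit reported above. With any 1 library left out, fewer members and fewer of all genes were called lower. Members called higher were 3 when pooled, where 7.14% of all genes were, against 17.0% in the fit reported above. Their number changed little with a library left out. Members differing between the siEZH2 numbered 5 without a filter and 5 with the replicate block. Over all genes 836 of 29763 and 1021 of 11585 differed, where the fit reported above called 1883 of 11585. With a library left out, fewer members and fewer of all genes differed, and the number called in the same direction with each siEZH2 varied. The median log2 change then ran from 0.0054 to 0.074. In the LAT1 series the members called lower numbered 0 without a filter, 0 pooled and 2 with the replicate block. Over all genes 4.24%, 2.74% and 14.3% were called lower in these fits, against 15.3% in the fit reported above. With a library left out, the number of members called lower fell or rose according to the library. The number called higher then stayed the same or fell, and fewer of all genes were called higher. Without a filter, 9 members were called in the same direction with each siLAT1 and 5 differed between the siLAT1. Over all genes 1823 of 28719 differed in that fit, where the fit reported above called 2981 of 11678. Both numbers of members also fell with a library left out. The share of all genes called in the same direction with each siLAT1 was not computed for these fits. The median log2 change was 0.172 after quantile normalization, 0.210 with a pseudocount of 0.1 and 0.192 to 0.211 with a library left out. The causes were not tested. The labels do not say that replicate numbers pair libraries, and the replicate differences of siNC and each siRNA correlated across genes at 0.35 and -0.34 in the EZH2 series and at 0.03 and 0.08 in the LAT1 series. A replicate block with the numbers of siEZH2-2 exchanged, chosen after seeing the data, gave 10 higher, 9 lower, 10 in the same direction and 17 differing among the members. Over all genes it called 30.0% higher and 24.5% lower, and 4627 of 11585 differing, where the fit without a block called 17.0%, 13.0% and 1883. The share of all genes called in the same direction was not computed for that block. CHAC1, DDIT3, JDP2, VLDLR and the members under 1 FPKM were among the lowest in level. Whether depth limited their results was not tested.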
